A study of Mus musculus with 6 samples.

Results

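Wnt ligands are secreted, lipid-modified proteins that carry short-range signals between neighbouring cells. The genes described here were 9 of the 19 Wnt genes of the mouse. They were chosen by name, with earlier results of these data known. The expression tables listed 48440 genes in all. Of the 9, *Wnt3*, *Wnt2b*, *Wnt6*, *Wnt9b* and *Wnt10a* were grouped as canonical ligands and *Wnt5a*, *Wnt5b*, *Wnt4* and *Wnt11* as noncanonical ligands. Canonical ligands bind Frizzled receptors together with Lrp5 or Lrp6 and spare β-catenin from the destruction complex, of which Apc is a part. Noncanonical ligands act through Frizzled, Ror or Ryk receptors on cell shape, polarity and migration, without a need for β-catenin. In the small intestine, Wnt signals hold the stem cell compartment at the crypt base, where Paneth cells (PCs) and the mesenchyme around the crypt are known sources of ligand.

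RNA from small intestinal adenomas of adult mice was sequenced, with 3 libraries per genotype. Mice of both genotypes carried the *Apc* Min allele, which leads to intestinal adenomas, and 1 copy of the Rosa26-iDTA allele (diphtheria toxin A behind a floxed stop cassette), on a C57BL/6 background and at an age above 42 days. *Apc* Min, PC del mice (libraries QC3, QC8 and QC10) also carried Defa4-Cre, a knock-in of IRES-Cre at the *Defa4* locus made in 129/svJ embryonic stem cells, which turns the toxin on in PCs. *Apc* Min, WT mice (libraries QC4, QC5 and QC6) had no Cre, so that WT here stands for intact PCs and not for a wild-type *Apc* gene. The comparison asks which ligands of an adenoma differ once PCs are depleted. The labels do not say whether each library came from a separate mouse, and p-values measure the spread between these libraries. The aligned sequence per library lay between 5.41 and 5.88 gigabases. Levels are given in FPKM, a fragment count divided by transcript length and by library size. FPKM is meant for comparing different genes of one library. For some ligands, *Wnt5b*, *Wnt11* and *Wnt5a* most, read coverage gave lower levels relative to the others. Orders, ranks and shares of ligands therefore hold for FPKM, and coverage is set beside them further on. Where 3 values are given for a genotype, they are in the order QC3, QC8, QC10 for PC del and QC4, QC5, QC6 for WT adenomas.

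Marker genes were used to describe the tissue in the libraries. Without a library of normal mucosa, they cannot tell adenoma from normal intestine. *Krt8* had a mean of 2271 FPKM, the highest of 6 epithelial genes (*Epcam*, *Cdh1*, *Krt8*, *Krt18*, *Krt19* and *Vil1*). The 6 genes summed to between 4260 and 6154 FPKM per library. *Axin2*, a feedback target of β-catenin, averaged 23.9 ± 3.73 FPKM in PC del and 21.4 ± 4.66 FPKM in WT adenomas (SD, n = 3 each). Of 6 pancreatic acinar genes, 5 were listed at 0 in each library, and the sixth, *Ctrb1*, had a mean of 0.229 FPKM. Smooth muscle genes were present in each library, with *Tagln* at a mean of 92.0 FPKM, so that the samples held stroma and muscle beside epithelium.

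Among the ligands, *Wnt3* was lower in each PC del library than in each WT library, *Wnt2b* was higher by a margin close to 0, and the other 7 overlapped between genotypes. The share of *Wnt3* in the summed ligand level was lower in each PC del library, but its numerator is the *Wnt3* level itself. It is thus no separate result. The share of noncanonical ligands overlapped.

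*Wnt3*, a canonical ligand that PCs make in the normal crypt, stood at 0.852, 0.937 and 1.16 FPKM in the PC del adenomas. In the WT adenomas it stood at 1.86, 2.62 and 1.41 FPKM. QC5 was the high library of the WT group, and the lowest WT library exceeded the highest PC del library by 0.253 FPKM. Group means were 0.984 ± 0.160 FPKM for PC del and 1.97 ± 0.610 FPKM for WT (SD, n = 3 each). The log2 fold change of FPKM + 1, a scale that understates the change of weakly expressed genes, was -0.56 with a standard error of 0.17 (limma, unadjusted p = 0.0143, Benjamini-Hochberg adjusted p = 1.0 over 14240 genes). It was lower in 3 of 3 PC del libraries, with p = 0.1 by an exact permutation test (two-sided), the smallest p that 3 libraries against 3 can give. In bulk tissue, fewer cells of a type and less RNA per cell cannot be told apart.

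*Wnt2b*, a canonical ligand known from the mesenchyme under the crypts, stood at 1.40, 2.33 and 1.53 FPKM in the PC del adenomas against 0.874, 1.25 and 1.40 FPKM in WT. The groups were separated by only 0.000271 FPKM, between PC del library QC3 and WT library QC6. The log2 fold change of FPKM + 1 was 0.33 with a standard error of 0.17 (limma, unadjusted p = 0.0933, Benjamini-Hochberg adjusted p = 1.0), and the groups overlapped once libraries were centred on their median ratio or quantile normalized. QC8 was the high PC del library, and without it the log2 fold change was 0.19.

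*Wnt6*, a canonical ligand of the crypt epithelium, was the most abundant canonical ligand by mean. It stood at 1.32, 1.95 and 3.17 FPKM in the PC del adenomas against 3.17, 2.20 and 1.63 FPKM in WT. The genotypes covered nearly the same range, and the log2 fold change of -0.10 (standard error 0.26) was smaller than its error. It became 0.10 without PC del library QC3 and 0.08 without WT library QC4.

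*Wnt10a*, a canonical ligand with known roles in teeth and hair follicles, ranged from 0.114 FPKM in PC del library QC3 to 0.560 FPKM in PC del library QC10, a 4.92-fold range that enclosed the WT libraries (0.300, 0.459 and 0.333 FPKM). Its remaining PC del library, QC8, stood at 0.327 FPKM. *Wnt9b*, a canonical ligand known for its part in kidney tubule formation, was the lowest of the 9 by FPKM in each library. It stood at 0.0346, 0.0335 and 0.0575 FPKM in the PC del adenomas against 0.0589, 0.0398 and 0.0596 FPKM in the WT libraries. Of the canonical ligands, *Wnt9b* was thus measured close to 0, and its groups overlapped.

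*Wnt5a*, the noncanonical ligand that acts through Ror2 and is made by intestinal mesenchyme, was the most abundant of the 9 by FPKM in each library. It stood at 7.67, 4.32 and 3.53 FPKM in the PC del adenomas against 8.26, 3.61 and 2.87 FPKM in WT. A single library of each genotype was high, QC3 and QC4, and the other 4 lay between 2.87 and 4.32 FPKM. The log2 fold change of 0.11 (standard error 0.38) was smaller than its error. With a library left out it ranged from -0.16 (without QC3) to 0.49 (without QC4), and it was negative in 3 of the 6 fits.

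*Wnt5b*, the closest relative of *Wnt5a*, varied least of the 9 together with *Wnt9b*, over a 1.78-fold range each. It stood at 0.744, 1.03 and 1.32 FPKM in the PC del adenomas against 0.959, 0.940 and 1.22 FPKM in WT. PC del libraries held both the lowest and the highest value, and the log2 fold change was -0.01 (standard error 0.14), or 0.0199 with TPM.

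*Wnt4*, known for kidney and female reproductive tract development, stood at 0.583, 0.752 and 0.601 FPKM in the PC del adenomas against 0.309, 0.785 and 1.34 FPKM in WT. The WT libraries alone spanned 4.34-fold and enclosed the PC del libraries, which lay within 1.29-fold of each other. *Wnt11*, known for convergent extension movements, stood at 0.783, 0.312 and 0.756 FPKM in PC del libraries and at 1.33, 0.887 and 0.363 FPKM in WT libraries in the same order. Its groups overlapped over a 4.27-fold range, with QC6 low in *Wnt11* and high in *Wnt4*, and QC4 the reverse.

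Only 5 of the 9 ligands (*Wnt3*, *Wnt2b*, *Wnt6*, *Wnt5a* and *Wnt5b*) reached the mean of 1 FPKM needed to enter the fit. *Wnt3* passed through its WT libraries, since its PC del mean was below 1. Of the 5, limma called 0 at a Benjamini-Hochberg adjusted p under 0.05, against 0.0140% of the 14240 genes. At an unadjusted p under 0.05, limma called 1 ligand lower in PC del adenomas (*Wnt3*), against 0.681% of genes, and 0 higher, against 2.70%. The groups did not overlap in 1 lower ligand (*Wnt3*), against 1.54% of genes, and in 1 higher ligand (*Wnt2b*), against 6.00%. In a fit down to a mean of 0.1 FPKM, the log2 fold changes of the weak ligands *Wnt10a*, *Wnt4* and *Wnt11* were -0.04, -0.10 and -0.18, each smaller than its standard error (0.13, 0.20 and 0.22). *Wnt9b* entered only the fit without a filter, with a log2 fold change of -0.02 (standard error 0.02).

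**Figure D1:**
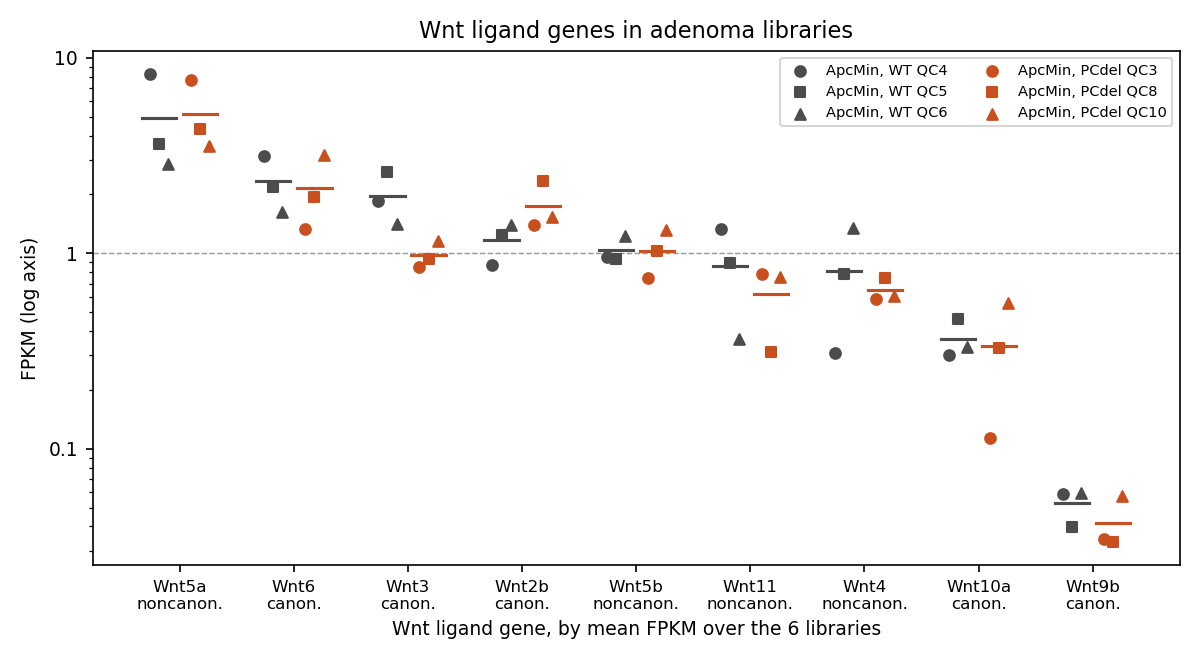
FPKM (log axis) of the 9 Wnt ligand genes in the 3 *Apc* Min, WT libraries (grey) and the 3 *Apc* Min, PC del libraries (orange), ordered by mean, with a point per library, a line at each group mean and a dashed line at 1 FPKM. *Wnt3* separates the genotypes by 0.253 FPKM, *Wnt2b* by 0.000271 FPKM and not after median centring or quantile normalization, and the other 7 overlap.

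By mean over the 6 libraries, the order ran from *Wnt5a* (5.04 FPKM) through *Wnt6* (2.24), *Wnt3* (1.47), *Wnt2b* (1.46), *Wnt5b* (1.04), *Wnt11* (0.739), *Wnt4* (0.729) and *Wnt10a* (0.349) to *Wnt9b* (0.0473 FPKM). *Wnt5a* was first and *Wnt9b* last in each library, and *Wnt4* was above *Wnt10a* in 6 of 6. The places between did not hold, since *Wnt10a* was above *Wnt11* in QC8, *Wnt6* was above *Wnt3* in 5 libraries, *Wnt2b* above *Wnt5b* in 5, *Wnt5b* above *Wnt11* in 4 and *Wnt11* above *Wnt4* in 4. *Wnt3* and *Wnt2b*, neighbours with nearly equal means, split by genotype, with *Wnt3* above *Wnt2b* in 3 of 3 WT libraries and in 0 of 3 PC del libraries.

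Ranked within a library, *Wnt3* was in place 4, 5 and 5 in the PC del adenomas and in place 3, 2 and 3 in WT. *Wnt2b* was in place 2, 2 and 3 in the PC del libraries and in place 6, 4 and 4 in the WT libraries. The ratio of *Wnt2b* to *Wnt3* was 1.65, 2.49 and 1.32 in the PC del libraries against 0.470, 0.475 and 0.992 in the WT libraries. That this ratio separates the genotypes follows from the separate order of both genes and adds no further result. Its mean was 1.82 ± 0.604 for PC del and 0.646 ± 0.300 for WT (SD, n = 3 each). The ratio of *Wnt3* to *Wnt5a* overlapped, at 0.111, 0.217 and 0.329 in the PC del libraries and at 0.225, 0.726 and 0.493 in the WT libraries.

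As a share of the summed FPKM of the 9 ligands, *Wnt3* made up 6.31%, 7.82% and 9.16% in the PC del adenomas and 10.9%, 20.5% and 13.3% in WT. This share averaged 7.76% ± 1.43 (SD, n = 3) against 14.9% ± 5.01 (SD, n = 3), without overlap, and the difference of -7.13 percentage points was -4.32 without WT library QC5. Of the canonical ligands alone, *Wnt3* made up 22.9%, 16.8% and 17.9% in the PC del libraries and 29.7%, 40.0% and 29.2% in the WT libraries, also without overlap. Both shares have the *Wnt3* level as numerator, so that their separation is no result apart from that of *Wnt3* itself.

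The 4 noncanonical ligands together made up 72.4%, 53.5% and 49.0% of the sum in the PC del adenomas and 63.5%, 48.7% and 54.5% in WT. The means of 58.3% ± 12.4 (SD, n = 3) and 55.5% ± 7.45 (SD, n = 3) differed by less than their spread. QC3 and QC4, where *Wnt5a* alone made up 56.8% and 48.3% of the sum, were the 2 libraries with the largest noncanonical share. The summed level of the 9 ligands also overlapped, at 12.7 ± 0.761 FPKM for PC del and 13.5 ± 3.30 FPKM for WT (SD, n = 3 each). The canonical sum was 5.26 ± 1.40 FPKM and 5.89 ± 0.917 FPKM (SD, n = 3 each), respectively, and overlapped as well.

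**Figure D2:**
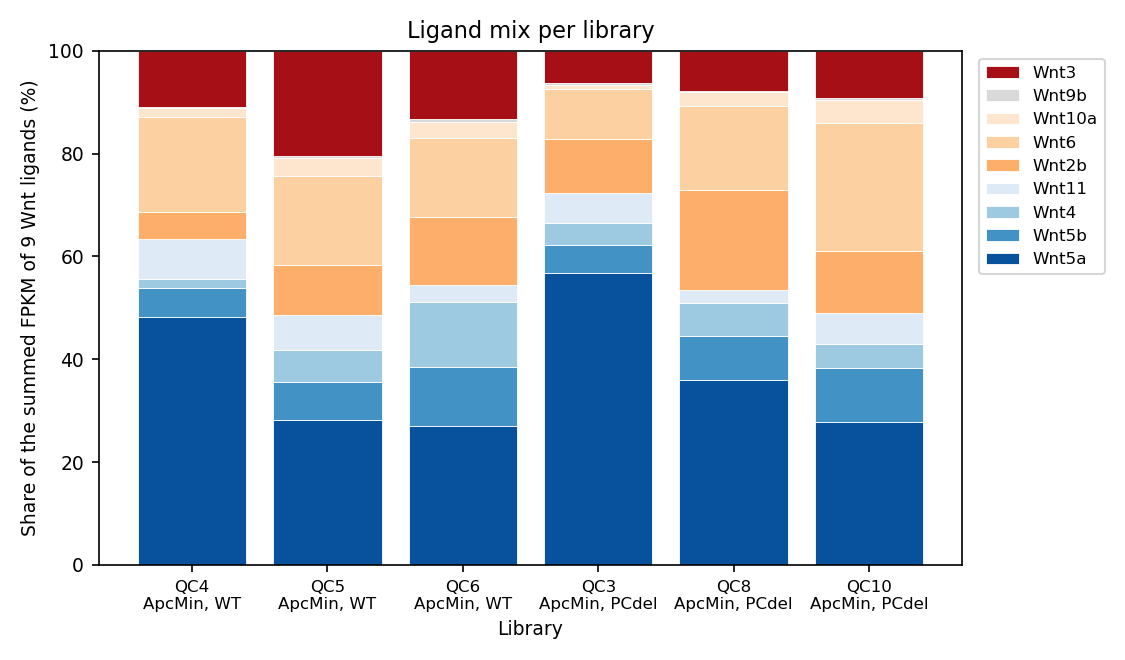
Share of the summed FPKM of 9 Wnt ligands (percent, stacked to 100) in each adenoma library, with noncanonical ligands in blue, *Wnt3* in dark red and the other canonical ligands in orange, except *Wnt9b* in grey. The dark red band is between 6.31% and 9.16% in PC del libraries and between 10.9% and 20.5% in WT libraries, while the blue bands together overlap between genotypes.

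The other 10 Wnt genes added little. The 9 ligands held between 90.3% and 96.3% of the FPKM of all 19 Wnt genes in each library. *Wnt1*, *Wnt3a*, *Wnt8a* and *Wnt16* were listed at 0 in each library and could not separate the genotypes. Of the 10, 0 separated them. Among genes averaging 1 FPKM or more, a level that 0 of the 10 reached, 1.54% were lower and 6.00% higher without overlap. *Wnt9a* had the highest mean of the 10, with 0.326, 0.396 and 0.199 FPKM in the PC del adenomas and 0.350, 0.368 and 0.265 FPKM in WT. *Wnt7b*, an epithelial ligand known from lung development, was high in WT library QC5 alone, at 0.678 FPKM, against 0.102 and 0.120 FPKM in QC4 and QC6 and 0.0628, 0.162 and 0.206 FPKM in the PC del adenomas. QC5 was also the library with the highest *Wnt3* level.

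The tables also hold the mean read coverage of a gene, which was divided by the aligned gigabases of the library. The gigabases were taken from genes with a fixed ratio of coverage to FPKM. *Wnt3*, *Wnt4*, *Wnt9b* and *Wnt10a* have this ratio, so that the measure equals FPKM for them by construction and is no second measurement of their levels. For *Wnt5a* it came to 74.6% of FPKM in QC3, 41.1% in QC4, 56.3% in QC5, 60.5% in QC6, 65.4% in QC8 and 59.8% in QC10. The annotation lists 6 *Wnt5a* transcripts from 254 to 7010 bases long, and the tables do not show which of them the FPKM of each library came from. By coverage per gigabase, *Wnt5a* stood at 5.72, 2.82 and 2.11 in the PC del adenomas against 3.40, 2.03 and 1.74 in WT, so that QC3 alone remained far above the rest, and its log2 fold change was 0.38. For *Wnt11* it came to between 20.9% and 57.0% of FPKM, which placed *Wnt11* below *Wnt4* in 6 of 6 libraries and moved its log2 fold change from -0.18 to -0.0033. *Wnt5a* was then no longer first in each library: *Wnt3* was first in QC5, at 2.62, and *Wnt6* was first in QC10, at 2.88. The share of *Wnt3* among the 8 ligands other than *Wnt5b* by this measure was 8.78%, 10.9% and 13.2% in the PC del libraries and 19.4%, 29.3% and 18.9% in the WT libraries. The groups did not overlap, with the *Wnt3* FPKM as the numerator once more. *Wnt5b* was left out, because its coverage came to no more than 2.99% of its FPKM and could not be placed on the same scale. For this reason the coverage per gigabase of *Wnt5b* (0.0219 to 0.0364) was not ranked against that of *Wnt9b* (0.0335 to 0.0595). The place of *Wnt5b* among the ligands is thus known for FPKM only. *Wnt9b* was last of the other 8 by coverage in each library, and its last place among all 9 rests on FPKM.

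**Figure D3:**
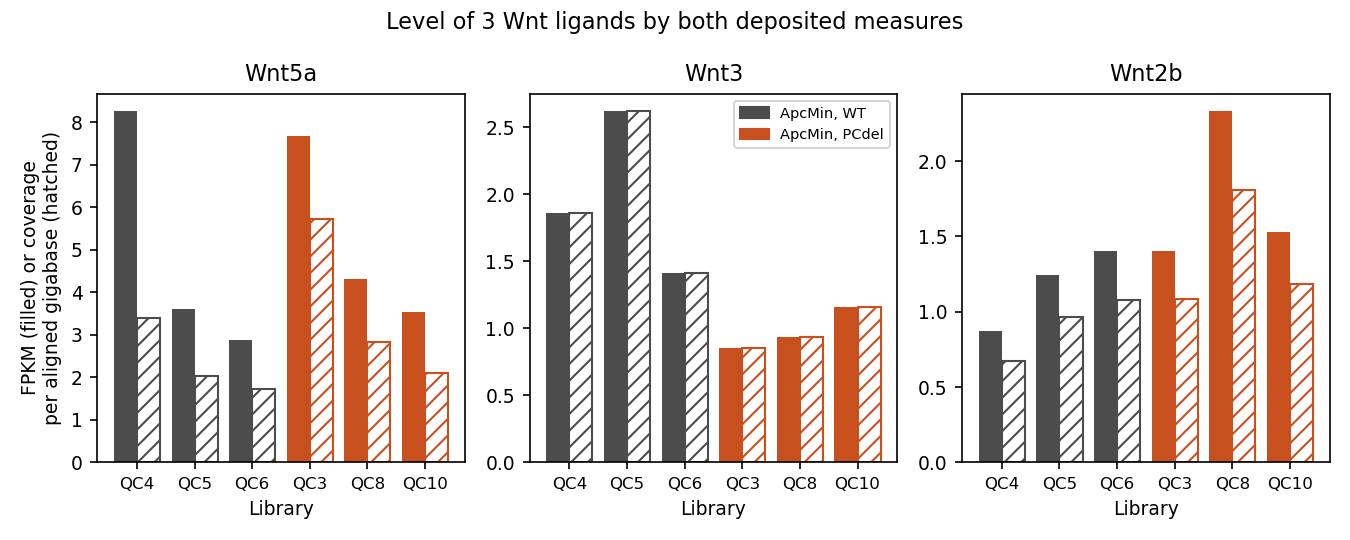
FPKM (filled bars) and coverage per aligned gigabase (hatched bars) of *Wnt5a*, *Wnt3* and *Wnt2b* in each adenoma library, WT in grey and PC del in orange. The bars of a pair are equal for *Wnt3* by construction of the measure, and for *Wnt5a* the hatched bar is between 41.1% and 74.6% of the filled bar.

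The ligands are distinct in sequence: 0 Wnt genes shared a stretch of 31 bases with any of the 9 in GENCODE's transcripts of GRCm38. Of the 31-base stretches of *Wnt5a*, *Wnt4* and *Wnt11*, 4.18%, 6.62% and 8.02%, respectively, occurred in transcripts of genes outside the family. For *Wnt11* this was the pseudogene Gm8398, which overlaps 364 exonic bases of *Wnt11* on the other strand and was listed at no more than 0.0785 FPKM. An antisense gene, Gm2670, overlapped 358 exonic bases of *Wnt5a* and stood at 0.337, 0.202 and 0.0920 FPKM in the PC del adenomas against 0.125, 0.0531 and 0.106 FPKM in WT. The remaining 6 ligands, *Wnt3* and *Wnt2b* among them, shared 0% of theirs.

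What the ligands do share is the site where the enzyme Porcupine attaches a lipid, a serine that secretion and receptor binding depend on. The 24 coding bases around this serine are shown because they hold this site in all 9, and because they show how far the genes differ even there. They are given on the coding strand, from GENCODE's transcripts of GRCm38, with the serine codon in capitals, and each lies within a single coding exon.
*Wnt3*, chr11:103812314-103812337, plus strand, exon 4: tgccacgggttgTCCggcagctgc
*Wnt2b*, chr3:104951220-104951243, minus strand, exon 4: tgtcacggtgtgAGTggctcctgt
*Wnt6*, chr1:74784172-74784195, plus strand, exon 4: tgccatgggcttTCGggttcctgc
*Wnt9b*, chr11:103731167-103731190, minus strand, exon 4: tgccatggtgtgTCAggctcctgt
*Wnt10a*, chr1:74803156-74803179, plus strand, exon 4: tgccacggcaccTCAggcagctgc
*Wnt5a*, chr14:28522515-28522538, plus strand, exon 5: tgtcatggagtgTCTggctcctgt
*Wnt5b*, chr6:119433800-119433823, minus strand, exon 5: tgtcacggagtcTCCgggtcctgc
*Wnt4*, chr4:137296345-137296368, plus strand, exon 5: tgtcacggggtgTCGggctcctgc
*Wnt11*, chr7:98850260-98850283, plus strand, exon 6: tgccatggggtgTCTggctcctgc
Of the 24 positions, 11 held the same base in each ligand, and the serine was written with 5 different codons. The segments were located by a pattern that requires both cysteines, both glycines and the serine. Part of the shared bases, also between pairs, was thus set by the search. Pairs of ligands shared between 13 bases (*Wnt2b* and *Wnt10a*) and 21 bases. *Wnt5a* and *Wnt5b* shared 19 of the 24, fewer than the 21 that *Wnt5a* shared with *Wnt11* or *Wnt9b*. *Wnt3* and *Wnt2b*, the ligands whose groups did not overlap, shared 15.

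By position, the 9 genes include 2 pairs of neighbours. *Wnt6* and *Wnt10a* lie 6193 bases apart on chromosome 1, both on the plus strand, and *Wnt9b* and *Wnt3* lie 24328 bases apart on chromosome 11, on opposite strands. *Wnt6* and *Wnt10a* were both lowest in QC3 and highest in QC10, but *Wnt6* was nearly as high in QC4 (3.166 against 3.167 FPKM). *Wnt10a* stood at 0.300 FPKM in QC4 against 0.560 FPKM in QC10. *Wnt9b* did not separate the genotypes, unlike its neighbour *Wnt3*.

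The genes whose pattern over the 6 libraries was most like that of *Wnt3*, by Pearson's r of log2(FPKM + 1) among 14239 others, were *Chchd5* (r = 0.975), *Vamp5* (0.973), *Maf1* (0.969), *Zfp341* (0.967) and *Rnf32* (0.957). The groups overlapped in *Chchd5* and *Rnf32*. *Vamp5*, *Maf1* and *Zfp341* showed the same order of groups as *Wnt3*, as 1.54% of all genes did. Since they were picked for likeness to *Wnt3*, this order adds no further result. *Vamp5*, a vesicle protein, stood at 1.93, 2.11 and 2.49 FPKM in the PC del adenomas and at 3.18, 5.77 and 2.95 FPKM in WT. For *Wnt5a* the closest were *Gm5564* (r = 0.988), *Gabpa* (0.983), *Bcl2l13* (0.981), *Ptpn21* (0.981) and *Gm6736* (0.976), and in each of these the genotypes overlapped. With 6 libraries and so many genes, values of r this high describe the libraries only.

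Ligand secretion genes, other than *Porcn*, were measured at higher levels than each ligand in each library. *Porcn*, which encodes Porcupine, stood at 2.51, 1.39 and 0.976 FPKM in the PC del adenomas against 1.11, 1.88 and 1.03 FPKM in WT, within the range of the ligands. Of the 7 secretion genes tested, limma called 0 at an unadjusted p under 0.05, against 0.681% of all genes lower and 2.70% higher. After adjustment it called 0 as well, against 0.0140%. The groups overlapped in each of the 7, while 1.54% of all genes were lower and 6.00% higher without overlap. Their summed level did not overlap, at 266.2, 266.7 and 274.9 FPKM in PC del and 245.2, 235.3 and 255.4 FPKM in WT adenomas, with *Snx3* the most abundant. Their median log2 fold change was 0.13, against 0.04 over all genes tested, and 1 of the 7 was negative with median centring or quantile normalization. Without WT library QC6 the median was 0.05, against -0.0023 over all genes tested, with 2 of the 7 negative.

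Of 16 receptor genes, 13 were tested and limma with Benjamini-Hochberg adjustment called 0. At an unadjusted p under 0.05 it called 2 higher in PC del adenomas, against 2.70% of all genes, and 0 lower, against 0.681%. Without WT library QC6 it called 0 in either direction. *Fzd1* stood at 3.51, 4.26 and 2.53 FPKM in the PC del adenomas against 1.90, 2.46 and 1.99 FPKM in WT. *Fzd10* stood at 1.46, 1.93 and 2.87 FPKM and at 1.29, 0.916 and 0.925 FPKM in the same order. Both were above WT in 3 of 3 PC del libraries, an order without overlap that 6.00% of all genes showed. Their log2 fold changes were 0.49 (standard error 0.17) and 0.58 (standard error 0.19), with a limma adjusted p of 1.0 each. *Fzd9* was the receptor with the opposite order, which 1.54% of all genes showed. It stood at 1.13, 1.40 and 0.886 FPKM in PC del libraries against 1.51, 1.67 and 1.42 FPKM in WT libraries. With median centring or quantile normalization limma called it lower at an unadjusted p under 0.05, but not after adjustment. The median over the 13 was 0.12, against 0.04 over all genes tested. Without WT library QC6 it was 0.05, against -0.0023 over all genes tested, with 3 of the 13 negative.

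Of 15 extracellular regulators, 7 were tested, 0 passed after adjustment and 1 was higher at an unadjusted p under 0.05 in limma (0 in 4 of the 6 fits with a library left out), against 2.70% of all genes. This was *Dkk3*, a Dickkopf relative, at 23.1, 22.7 and 25.5 FPKM in the PC del adenomas against 21.6, 17.2 and 14.1 FPKM in WT (log2 fold change 0.43, standard error 0.16, adjusted p = 1.0). *Rspo1*, an R-spondin that raises the response to Wnt ligands, was below the filter at 0.446, 0.501 and 0.250 FPKM in PC del libraries and 0.249, 0.146 and 0.202 FPKM in WT libraries. The most abundant regulator was *Notum*, an enzyme that removes the lipid from Wnt ligands, at a mean of 59.2 FPKM and with overlapping groups. It was thus more abundant than each of the ligands in each library. The median log2 fold change over the 7 was 0.07, and it was -0.0070 with quantile normalization and -0.14 without WT library QC6.

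Of 16 target genes of canonical signalling, all tested, 0 passed after adjustment and 1 was higher at an unadjusted p under 0.05 in limma (0 in 5 of the 6 fits with a library left out), against 2.70% of all genes. *Znrf3*, a ubiquitin ligase that removes Frizzled from the cell surface, stood at 5.67, 6.10 and 5.80 FPKM in the PC del adenomas against 5.25, 4.69 and 4.23 FPKM in WT. Its log2 fold change was 0.26 (standard error 0.11, limma adjusted p = 1.0). The 16 had a median log2 fold change of 0.17, against 0.04 over all genes tested, and 3 of the 16 were negative, or 5 with median centring or quantile normalization. This direction rested on 1 library: without WT library QC6 the median was -0.02, against -0.0023 over all genes tested, and 9 of the 16 were negative. The summed level, 314.2, 356.5 and 343.9 FPKM in PC del and 361.1, 326.3 and 225.8 FPKM in WT adenomas, was low in QC6 alone. *Nkd1* was the most abundant.

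Cell type markers were set beside the ligands. The 10 PC genes were each lower in PC del adenomas by log2 fold change, with a median of -0.99 against 0.04 over all genes tested. The changes of *Ang4* (-0.35), *Mmp7* (-0.22) and *Pla2g2a* (-0.10) were smaller than their standard errors (1.15, 0.30 and 0.23). By mean FPKM, *Ang4* was slightly higher in PC del (553.6) than in WT adenomas (547.4). With a library left out, the median ranged from -1.31 to -0.66 (without QC6), and 9 or 10 of the 10 were negative. In 3 of them, *Lyz1*, *Defa21* and *Defa22*, the groups did not overlap, against 1.54% of all genes. At an unadjusted p under 0.05 limma called 6 of the 10 lower (3 with quantile normalization, and between 3 and 7 with a library left out), against 0.681% of all genes, and 0 after Benjamini-Hochberg adjustment. Their summed level was 4219, 7216 and 4284 FPKM in the PC del adenomas and 6378, 9601 and 13360 FPKM in WT, which overlapped, with *Defa24* the most abundant. The PC sum and *Lyz1* were highest in QC6, while *Defa21* and *Defa22* were highest in QC5, as *Wnt3* was.

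Markers of subepithelial mesenchyme, including telocytes, ran the other way. The 4 of 5 tested, *Foxl1*, *Pdgfra*, *Foxf1* and *Foxf2*, were higher in 3 of 3 PC del libraries, against 6.00% of all genes, and limma called each at an unadjusted p under 0.05, against 2.70% of all genes, and 0 after adjustment. *Pdgfra*, the most abundant, stood at 14.7, 15.3 and 10.9 FPKM in the PC del adenomas against 9.14, 8.93 and 7.40 FPKM in WT. The list summed to 28.3, 29.0 and 22.7 FPKM against 18.7, 18.4 and 16.5 FPKM. Its median log2 fold change was 0.37, and with quantile normalization it was 0.30, with 3 of the 4 called at an unadjusted p under 0.05. With a library left out, 2 or 3 of the 4 were called.

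Of the other lists, fibroblast genes (6 tested, median log2 fold change 0.27, most abundant *Dcn*), smooth muscle genes (6, 0.33) and leukocyte genes (4, 0.31) were each positive, and endothelial genes were in 3 of 4 (median 0.25). By limma at an unadjusted p under 0.05, 1 fibroblast gene (*Dcn*) and 1 leukocyte gene (*Adgre1*) were called higher, against 2.70% of all genes, and 0 after adjustment. Their groups did not overlap, against 6.00% of all genes. *Adgre1* was not called with median centring or quantile normalization, and 0 leukocyte genes were called without QC5, QC8 or QC10. For fibroblast genes, 0 were called without QC3, QC6 or QC8. With a library left out, the fibroblast median ranged from 0.11 (without WT library QC6, with 2 of the 6 negative) to 0.51 (without PC del library QC10). Without QC6 the endothelial median was 0.04. Without WT library QC4 the smooth muscle and leukocyte medians were 0.11 and 0.14, with 1 gene of each list negative. Enterocyte genes (6, -0.29) were each negative, but the median was 0.12 without WT library QC6, whose enterocyte sum of 21500 FPKM stood above those of the other 5 libraries (7723 to 11170 FPKM). Epithelial genes (6, 0.02) were mixed, with 2 negative, 5 with median centring or without QC6 and 0 with TPM. The single neural gene tested, *S100b*, had a log2 fold change of -0.28, or -0.079 without PC del library QC10. Groups overlapped in the summed level of each of these lists. The part of PC, mesenchymal or other cells in the levels of *Wnt3* and *Wnt2b* was not tested.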

How the data were processed

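The authors prepared libraries with the TruSeq RNA kit and aligned the reads in CLC Genomics Workbench; settings of their normalization, the annotation and the program behind the tables are not given in the sources used here. The authors deposited, per library and gene, FPKM, TPM (scaled to a fixed sum) and the mean read coverage, and gene positions match GRCm38. Entries of a gene were summed. The coverage of genes in a fixed ratio to FPKM gave the aligned gigabases of each library. No read counts were used here, so no counting intervals were derived.

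Genotypes were compared with limma 3.58.1 in R 4.3.3 (lmFit, eBayes with a trend) on log2(FPKM + 1), for genes averaging 1 FPKM or more, with p-values adjusted by Benjamini-Hochberg (threshold 0.05), and by an exact two-sided permutation test for a single gene. Shares, ranks and sums were computed in Python 3.11.15 and described without a test. Both the fit and the search for shared 31-base stretches were tested on simulated data.

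The members and lists were chosen with earlier results of these data known. Named are the 9 ligands, the other Wnt genes averaging 0.1 FPKM or more or with groups that do not overlap, the first gene of each pathway list with up to 4 that separate the genotypes, and the 5 genes most like *Wnt3* and *Wnt5a*. *Krt8*, *Notum* and other most abundant genes of lists were named after their values were seen. Alternatives covered the pseudocount, filters, TPM, centring, quantile normalization, the trend, a Y-linked score, left-out libraries, other denominators and ligand groupings, and coverage.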

Additional observations from a re-analysis of the deposited data

How the results depend on the processing

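The log2 fold change of *Wnt3* stayed negative under the 14 alternatives fitted with limma (-0.90 to -0.41) and that of *Wnt2b* positive (0.19 to 0.53), and neither passed the adjusted threshold in these (adjusted p from 0.768 to 1.0 and from 0.845 to 1.0). Others changed sign: *Wnt5b*, at -0.01, was 0.0199 with TPM and ranged from -0.114 to 0.0923 with each library left out in turn; over the same fits *Wnt6*, at -0.10, ranged from -0.32 to 0.10 and *Wnt5a*, at 0.11, from -0.16 to 0.49. The number of genes past the threshold, 2, was 1 without a filter, 1 with median centring and between 1 and 5 with a library left out. The number of ligands whose groups do not overlap, 2, was 1 with median centring and 1 with quantile normalization, both applied to the 5 that passed the filter, and this was *Wnt3*. Coverage per gigabase, not tested, was chosen after seeing the data and equals FPKM for *Wnt3*. The difference in *Wnt3* share, -7.13 percentage points, was -4.32 without QC5, -7.74 without *Wnt5b*, and -11.6 without *Wnt5b* by coverage. The difference in noncanonical share, 2.75 points, was -0.935 without *Wnt5a*, 4.49 with *Wnt4* as canonical, 8.56 by coverage without *Wnt5b*, and ranged from -4.32 (without QC3) to 7.41 with a library left out. Gene list medians without each library were also added after seeing the data, and QC6 moved several. The cause was not tested. With a Y-linked score in the model, *Wnt3* was at -0.57. No paired analysis was possible because the library numbers link no samples across genotypes. With 3 libraries per genotype, and levels near 1 FPKM without counts, small differences in weak ligands may have been missed. No detection limit is given here.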
